A study of Mus musculus with 2 samples.

Results

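Pdx1, Nkx6-1, Mafa, Irx2, Hhex, Neurod1, Pax6 and Isl1 encode transcription factors that set and keep the identity of pancreatic islet cells. These 8 genes, chosen by symbol, were followed among the 27998 genes counted in single-cell RNA-Seq of mouse islets. The data hold 2 libraries. WT is 1 pool of islets from 4 wild-type mice, and GKO is 1 pool from 4 mice homozygous for a ghrelin-knockout allele. All were 8-week-old male littermates on a C57BL/6N background, fed standard chow ad libitum, and the knockout is in the germline, so no cell type was targeted. Islets were freed with collagenase and dispersed, live single cells were sorted, and transcript 3′ ends were counted as unique molecular identifiers (UMIs), which count each captured transcript once.

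Endocrine cells arise from progenitors in which a chain of transcription factors is switched on in turn. The LIM homeodomain factor Isl1, the paired homeodomain factor Pax6 and the bHLH factor Neurod1 act in several endocrine lineages. Pdx1, Nkx6-1 and the bZIP factor Mafa are known for β cells, where they act on the insulin genes and on the genes of glucose sensing. Irx2 is an Iroquois homeodomain factor known in α cells, and Hhex is a homeodomain factor needed by δ cells.

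Barcodes were grouped by the hormone that led their RNA. A barcode was called insulin-led, glucagon-led, somatostatin-led or PP-led (pancreatic polypeptide) when that hormone had the largest share of its UMIs, and at least 10%. Of 7792 barcodes in WT, 7100 held 500 genes or more with no more than 10% of UMIs from mitochondrial genes, and 6346 of 7289 did in GKO. WT then held 2265 insulin-led, 1048 glucagon-led, 1414 somatostatin-led and 717 PP-led barcodes. GKO held 872, 1397, 1003 and 669. A level is the number of UMIs of a gene per 1000000 UMIs of all genes other than the 5 hormone genes, summed over the barcodes of a group. Brackets after a level or a fold hold exact 95% Poisson or binomial intervals, which cover counting error only. With 1 library per genotype there is no replicate, cells of a pool are not replicates, and no test of a genotype difference could be made. Differences between mice and between islet preparations cannot be told apart from genotype. The libraries held 158067110 UMIs in WT and 103511757 in GKO and shared 18 cell barcodes. Ghrl, the gene for ghrelin, had 43634 UMIs in WT and 280 in GKO, of which 276 lay in 1 barcode.

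The 8 genes are placed on mm10, the build named in the submitters' processing notes (gene limits from GENCODE vM21). Pdx1 spans chr5:147269959-147275848 on the plus strand and Nkx6-1 spans chr5:101658139-101664996 on the minus strand. Neurod1 (chr2:79452521-79456751, minus) and Pax6 (chr2:105668900-105697364, plus) share chromosome 2. Isl1 (chr13:116298281-116309689, minus) and Irx2 (chr13:72628820-72634198, plus) share chromosome 13. Mafa is at chr15:75745490-75748228 on the minus strand and Hhex at chr19:37434810-37440731 on the plus strand.

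Stretches just upstream of the start are printed for Irx2 (glucagon-led), Hhex (somatostatin-led) and Isl1 (all groups), by patterns described below. None is printed for the insulin-led pattern or for Pdx1. They are RefSeq sequences of GRCm38.p6, cut to end upstream of both the RefSeq and the GENCODE start. Capitals mark E-boxes (CANNTG, the core bound by bHLH factors such as Neurod1) and the homeodomain core TAAT, on either strand. The Irx2 stretch is chr13:72628570-72628819 on the plus strand, the Hhex stretch chr19:37434591-37434809 on the plus strand, and the Isl1 stretch chr13:116309690-116309938 on the minus strand.
Irx2: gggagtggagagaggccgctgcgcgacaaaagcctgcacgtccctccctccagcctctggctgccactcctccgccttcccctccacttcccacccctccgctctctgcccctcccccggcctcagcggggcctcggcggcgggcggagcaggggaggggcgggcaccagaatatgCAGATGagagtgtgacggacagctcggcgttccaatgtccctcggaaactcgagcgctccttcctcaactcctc
Hhex: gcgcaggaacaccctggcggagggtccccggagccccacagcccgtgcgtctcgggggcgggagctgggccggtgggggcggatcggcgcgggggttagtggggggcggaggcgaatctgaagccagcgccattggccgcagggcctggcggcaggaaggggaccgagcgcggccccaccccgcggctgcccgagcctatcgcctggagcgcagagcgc
Isl1: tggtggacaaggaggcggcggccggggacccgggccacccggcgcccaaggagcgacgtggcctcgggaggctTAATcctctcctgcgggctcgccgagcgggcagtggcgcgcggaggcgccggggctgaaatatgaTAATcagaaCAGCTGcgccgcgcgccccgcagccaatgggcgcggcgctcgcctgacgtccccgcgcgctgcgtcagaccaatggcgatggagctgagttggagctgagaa
The Irx2 stretch held 1 E-box and no TAAT, the Hhex stretch held neither, and the Isl1 stretch held 1 E-box and 2 TAAT cores, none overlapping. Of 32851 windows of 250 bases upstream of RefSeq starts, 66.2% held an E-box and 54.9% held TAAT, so either motif is common. A match is only a match of letters. The counts are from transcript 3′ ends and do not show which start was used. Of the 8 genes, 7 had an upstream sequence in the RefSeq table and Mafa did not.

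Each lineage factor had the same highest hormone group in both libraries. Nkx6-1 and Mafa were highest in insulin-led, Irx2 in glucagon-led and Hhex in somatostatin-led barcodes, each at least 2-fold above all other groups in WT and in GKO. These were 4 of the 8 genes, and 7.83% of the 14544 genes with at least 50 UMIs met the same rule. The 8 genes were picked as known islet identity factors, so a count above that share follows from the choice. Pdx1, Neurod1, Pax6 and Isl1 did not meet it. The order of the 4 groups was the same in both libraries for 5 of the 8 genes. Below the highest group it differed for Mafa, Irx2 and Hhex.

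Nkx6-1, which represses non-β programs in β cells, had a level of 276 (271 to 282) in insulin-led barcodes of WT and 306 (297 to 316) in GKO. PP-led barcodes followed, at 61.1 in WT and 68.3 in GKO, so the insulin-led level was 4.52-fold (4.18 to 4.90) and 4.49-fold (4.14 to 4.87) higher. Glucagon-led barcodes lay at 19.2 and 22.4, and somatostatin-led barcodes at 9.86 and 9.57. Nkx6-1 thus spanned the groups in 4 separate steps, insulin, PP, glucagon and somatostatin, and no interval of a step included 1-fold.

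Mafa, an activator of the insulin genes in mature β cells, had few UMIs. Insulin-led barcodes held 197 UMIs in 174 of 2265 barcodes in WT, a level of 5.71 (4.94 to 6.57). In GKO they held 139 UMIs in 116 of 872 barcodes, a level of 10.4 (8.73 to 12.3). Every other hormone-led group had 0 or 1 UMI in each library. The insulin-led level was 74.1-fold that of somatostatin-led barcodes in WT, with an interval from 13.1 to 2941, and 104-fold that of PP-led barcodes in GKO (18.3 to 4120).

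Pdx1, which activates the insulin and glucose transporter genes and is also known in δ cells, was shared by both groups. Its level in insulin-led barcodes was 137 (133 to 141) in WT and 189 (182 to 197) in GKO. In somatostatin-led barcodes it was 96.0 (90.8 to 102) and 115 (108 to 123), so insulin-led barcodes were 1.43-fold (1.34 to 1.52) higher in WT and 1.64-fold (1.52 to 1.76) in GKO. PP-led barcodes lay at 25.1 and 32.3, and glucagon-led barcodes were lowest at 12.6 and 13.3. The step down from somatostatin-led to PP-led barcodes, 3.82-fold in WT and 3.58-fold in GKO, was larger than the step above it.

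Irx2 had a level of 125 (118 to 132) in glucagon-led barcodes of WT and 146 (140 to 153) in GKO. PP-led barcodes came next at 30.7 and 30.5, 4.07-fold (3.61 to 4.602) and 4.79-fold (4.25 to 5.43) lower. Somatostatin-led barcodes had 6.94 and 8.64 and insulin-led barcodes 6.41 and 10.5, and these lowest groups did not differ beyond counting error in either library.

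Hhex had the clearest separation among the hormone groups after Mafa. Its level in somatostatin-led barcodes was 271 (262 to 280) in WT and 287 (276 to 299) in GKO. Insulin-led barcodes were next at 24.3 and 28.1, 11.1-fold (10.3 to 12.02) and 10.2-fold (9.18 to 11.4) lower. Glucagon-led barcodes had 20.7 and 17.7 and PP-led barcodes 12.3 and 19.8.

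The shared factors varied by less than 3-fold between hormone groups. Neurod1, which acts with E-box partners on the insulin gene, ran from 135 in somatostatin-led to 223 in insulin-led barcodes of WT, and from 144 to 231 in GKO. Insulin-led and glucagon-led barcodes did not differ beyond counting error in GKO, at 231 and 224. Pax6, needed for the glucagon gene, was highest in somatostatin-led barcodes at 375 (364 to 385) in WT and 358 (345 to 371) in GKO. It was lowest in PP-led barcodes, at 209 and 200.3. Isl1 was also highest in somatostatin-led barcodes, at 403 (391.9 to 414) and 480.1 (465 to 495), and lowest in insulin-led barcodes at 172 and 195. Pax6 and Isl1 therefore both peaked in somatostatin-led barcodes, while Neurod1 was lowest there, in WT within counting error of PP-led barcodes (143).

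**Figure D1:**
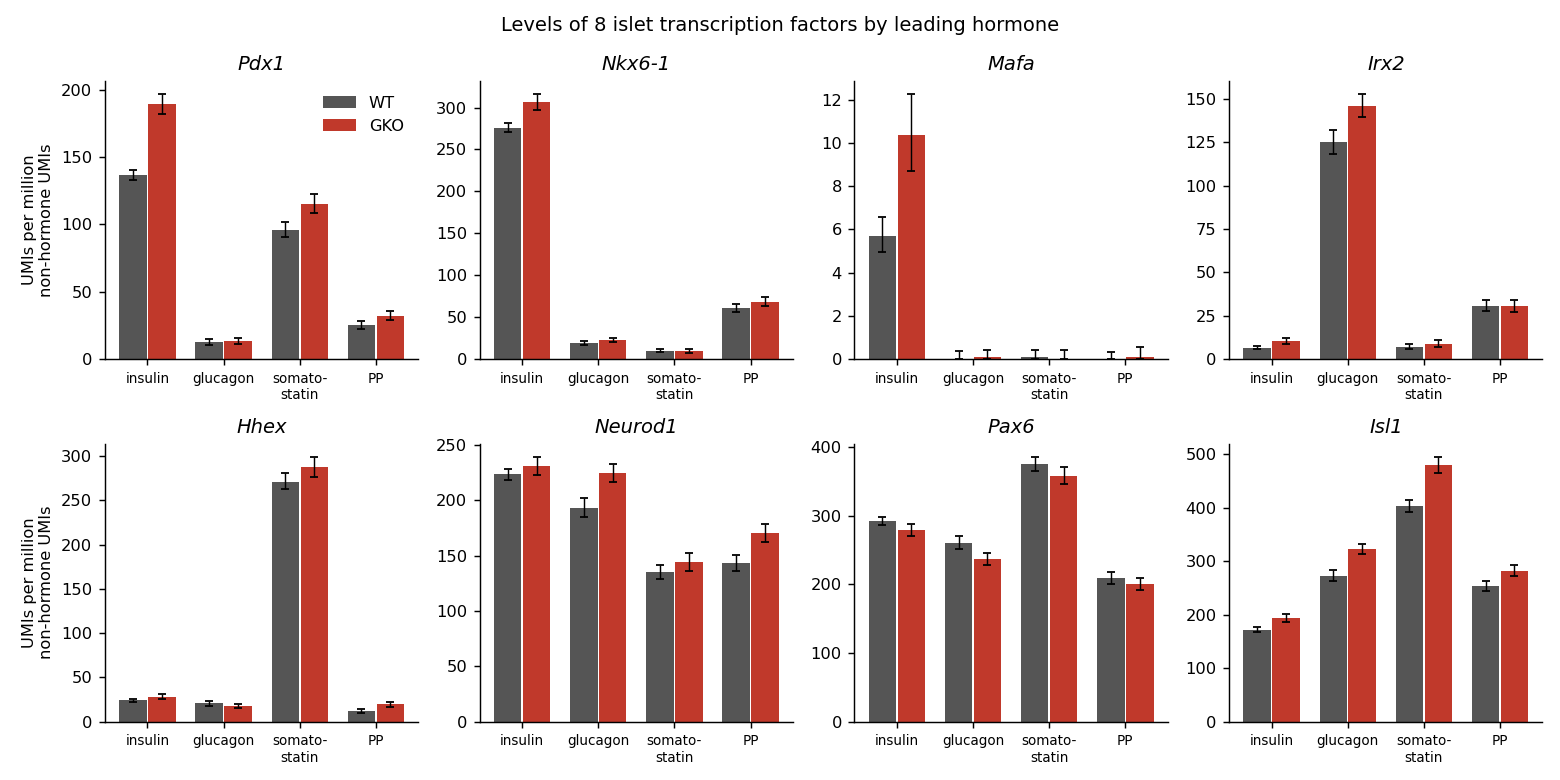
Level of each gene in UMIs per 1000000 non-hormone UMIs (vertical axis, from 0, a scale of its own per gene) in 4 hormone-led groups of WT (grey) and GKO (red). Bars are sums over 1 library and lines are 95% counting intervals. Nkx6-1 and Mafa stand highest in insulin-led, Irx2 in glucagon-led and Hhex in somatostatin-led barcodes, Pdx1 in insulin-led and somatostatin-led barcodes, and the other 3 genes in all groups.

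Hhex outside somatostatin-led barcodes came largely from barcodes that also carried somatostatin. In insulin-led barcodes, those with at least 2% somatostatin UMIs were 10.2% of the barcodes in WT (232) and 11.8% in GKO (103). They held 73.5% and 84.6% of the Hhex UMIs of the group, at a level of 124 and 141, against 7.55 and 5.21 in the rest. In glucagon-led barcodes, 8.21% and 7.23% had at least 2% somatostatin and held 87.96% and 94.9% of the Hhex UMIs. Their Hhex levels were 135 and 129, against 2.89 and 1.03 in the other glucagon-led barcodes. In PP-led barcodes the somatostatin carriers held 82.1% and 69.2%.

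Irx2 outside glucagon-led barcodes came from glucagon carriers to a lesser and varying share. Insulin-led barcodes with at least 2% glucagon UMIs were 5.34% of the group in WT and 4.70% in GKO and held 55.7% and 50.0% of its Irx2 UMIs. The carriers held 48.4% and 38.8% in PP-led barcodes, and 17.8% and 21.6% in somatostatin-led barcodes. They were 17.9% of PP-led barcodes in WT, but only 1.34% of somatostatin-led barcodes in WT and 1.79% in GKO. In somatostatin-led barcodes the Irx2 level was 49.6 with glucagon and 5.85 without in WT, and 53.9 and 7.01 in GKO. In PP-led barcodes the Irx2 level was 75.8 (64.6 to 88.4) with glucagon and 19.7 (16.9 to 22.9) without in WT, and 75.0 and 22.1 in GKO. The level without glucagon was still above that of insulin-led barcodes without glucagon, 3.08 in WT and 5.64 in GKO.

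Nkx6-1 in PP-led barcodes lay mostly outside insulin carriers. Of PP-led barcodes, 1.39% in WT and 1.35% in GKO had at least 2% insulin UMIs, and without them the Nkx6-1 level was 59.2 and 67.5. Pdx1 in somatostatin-led barcodes was 96.7 in WT and 116 in GKO without insulin carriers. Somatostatin carriers among glucagon-led barcodes were deeper, with a median of 22041.5 UMIs in WT and 21778 in GKO against 11969.5 and 11783 in the rest. Droplets with 2 cells were not removed from the counts, and their part in these levels was not tested. Leaving out all barcodes with any second hormone at 2% or more lowered Hhex to 5.94 and 5.03 in insulin-led and to 3.26 and 0.987 in glucagon-led barcodes, and kept it at 271 and 285 in somatostatin-led barcodes. It lowered Pdx1 in glucagon-led barcodes to 5.85 and 5.73. Of the somatostatin-led barcodes it left out 797 of 1414 in WT and 503 of 1003 in GKO. Most of these, 759 and 486, had at least 2% PP UMIs.

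**Figure D2:**
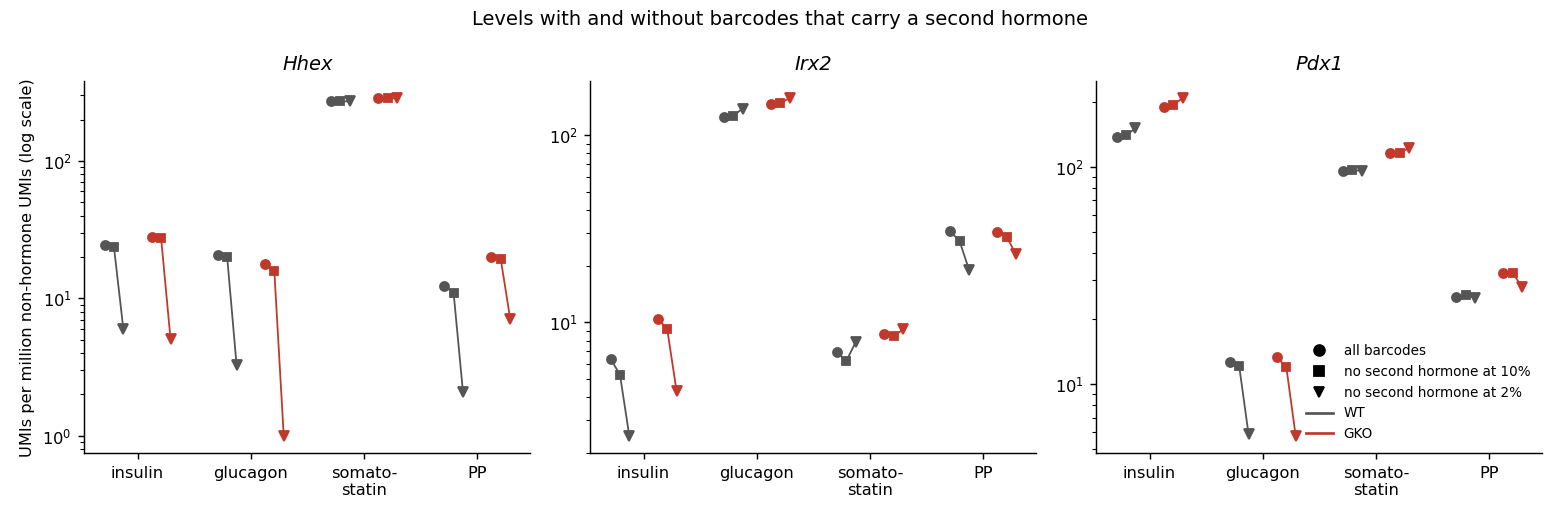
Levels of Hhex, Irx2 and Pdx1 (UMIs per 1000000 non-hormone UMIs, log scale) by hormone-led group, WT in grey and GKO in red. Circles are all barcodes, squares leave out barcodes with a second hormone at 10% of UMIs, and triangles leave out those at 2%. Hhex drops in insulin-led, glucagon-led and PP-led barcodes at the 2% limit, but not in somatostatin-led barcodes, where it is 271 in WT and 285 in GKO.

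Within the insulin-led group, Pdx1, Nkx6-1 and Mafa were higher and Hhex and Irx2 lower at a high insulin share, relative to the non-hormone UMIs. From barcodes with 10 to 25% insulin UMIs to those with over 60%, the Pdx1 level went from 62.2 to 152 in WT and from 102 to 208 in GKO. Nkx6-1 went from 122 to 329 and from 202 to 370.5. Mafa had no UMI in the lowest bin of either library (53 and 37 barcodes) and a level of 7.81 in WT and 13.6 in GKO in the highest. Hhex was 76.1 in the lowest bin of WT and 3.25 in the highest, and 56.2 and 3.03 in GKO. Irx2 went from 10.9 to 2.00 in WT and from 30.7 to 3.51 in GKO. Pax6 had levels of 284 and 281 in WT and 293 and 262 in GKO, a difference within counting error in each library. With limits at 40 and 70% Pax6 fell from 307 to 256 in WT and from 305 to 233 in GKO. Between the 10 to 25% and over 60% bins, Neurod1 rose from 143 to 230 in WT (log2 ratio 0.68, 0.44 to 0.93). In GKO it was at 199 and 230, within counting error. Isl1 was lower in the highest bin, at 144 against 179 in WT and 158 against 213 in GKO. These levels leave insulin UMIs out of the total. On all UMIs, where insulin itself dilutes every other gene, the log2 ratio of the highest to the lowest bin for Pdx1 was 0.12 in WT and -0.056 in GKO instead of 1.29 and 1.02. For Nkx6-1 it was 0.27 and -0.21 instead of 1.44 and 0.88. The direction for both genes in GKO thus rests on the total chosen. On all UMIs the same log2 ratio was -0.48 in WT and -0.87 in GKO for Neurod1, and -1.18 and -1.24 for Pax6. With limits at 40 and 70% the Pdx1 level was highest in the middle bin, at 146 against 129 above it in WT and 207 against 169 in GKO, and the log2 ratio of highest to lowest bin was 0.45 and 0.50. Insulin-led barcodes with at least 2% somatostatin also differed from the rest in these genes. In WT Nkx6-1 was at 150 against 297, Mafa at 1.81 against 6.37 and Pdx1 at 112 against 141. In GKO the values were 192 against 329, 3.98 against 11.7 and 155 against 196. The part of barcodes with a second hormone in the trend over insulin share was not tested.

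**Figure D3:**
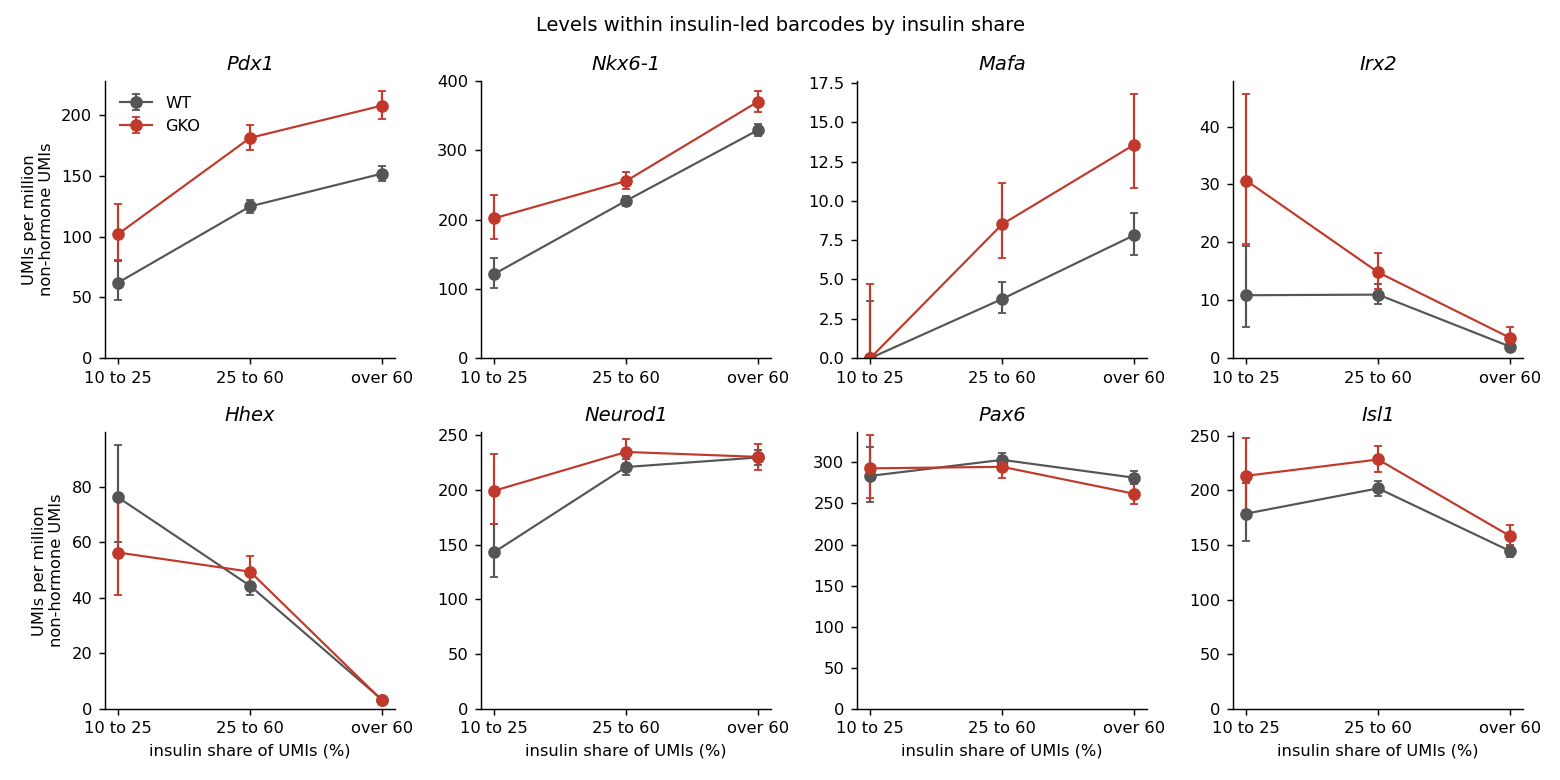
Level of each gene (UMIs per 1000000 non-hormone UMIs, axis from 0) in insulin-led barcodes with 10 to 25%, 25 to 60% and over 60% insulin UMIs, WT in grey and GKO in red, with 95% counting intervals. Pdx1, Nkx6-1 and Mafa are highest and Hhex and Irx2 lowest at over 60% insulin. The lowest bin holds 53 barcodes in WT and 37 in GKO.

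Detection per barcode was compared after each barcode was thinned to 5000 UMIs, and shallower barcodes were left out (7 and 1 insulin-led, 11 and 15 glucagon-led, 17 and 11 somatostatin-led, 1 and 2 PP-led barcodes in WT and GKO). Irx2 was found in 36.4% of glucagon-led barcodes in WT (33.4 to 39.4) and 39.7% in GKO (37.1 to 42.4). In insulin-led barcodes it was found in 0.974% and 2.53%. Hhex was found in 57.0% and 62.2% of somatostatin-led barcodes. Nkx6-1 was found in 40.7% and 45.9% of insulin-led, 16.5% and 17.5% of PP-led and 2.86% and 3.12% of somatostatin-led barcodes. The background was given by endothelial-like barcodes, with median depths of 7013 and 7363 UMIs, in which Nkx6-1 was found in 0 of 431 in WT and 0 of 325 in GKO. A floor of 3 barcodes there is a share of 0.696% in WT and 0.923% in GKO. Irx2 was found there in 0.232% and 0%, and Isl1 in 0.696% and 0%. Without thinning, Irx2 was found in 64.6% and 68.1% of glucagon-led barcodes.

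Pdx1 was found in 23.5% of insulin-led and 30.6% of somatostatin-led barcodes of WT, and in 33.3% and 35.99% of GKO. Insulin took 61.3% and 59.2% of the UMIs of insulin-led barcodes, so their 5000 UMIs held fewer from other genes, and no order is read from these shares. In somatostatin-led barcodes, Pdx1 and Hhex were found together in 18.5% (16.5 to 20.6) of WT and 24.0% (21.4 to 26.8) of GKO barcodes. The product of the single shares is 17.4% and 22.4%. In insulin-led barcodes Pdx1 and Nkx6-1 were found together in 10.6% and 16.3%, where the product is 9.56% and 15.3%. Irx2 and Nkx6-1 met in 1.93% and 3.11% of glucagon-led barcodes, where the product is 2.42% and 2.99%.

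**Figure D4:**
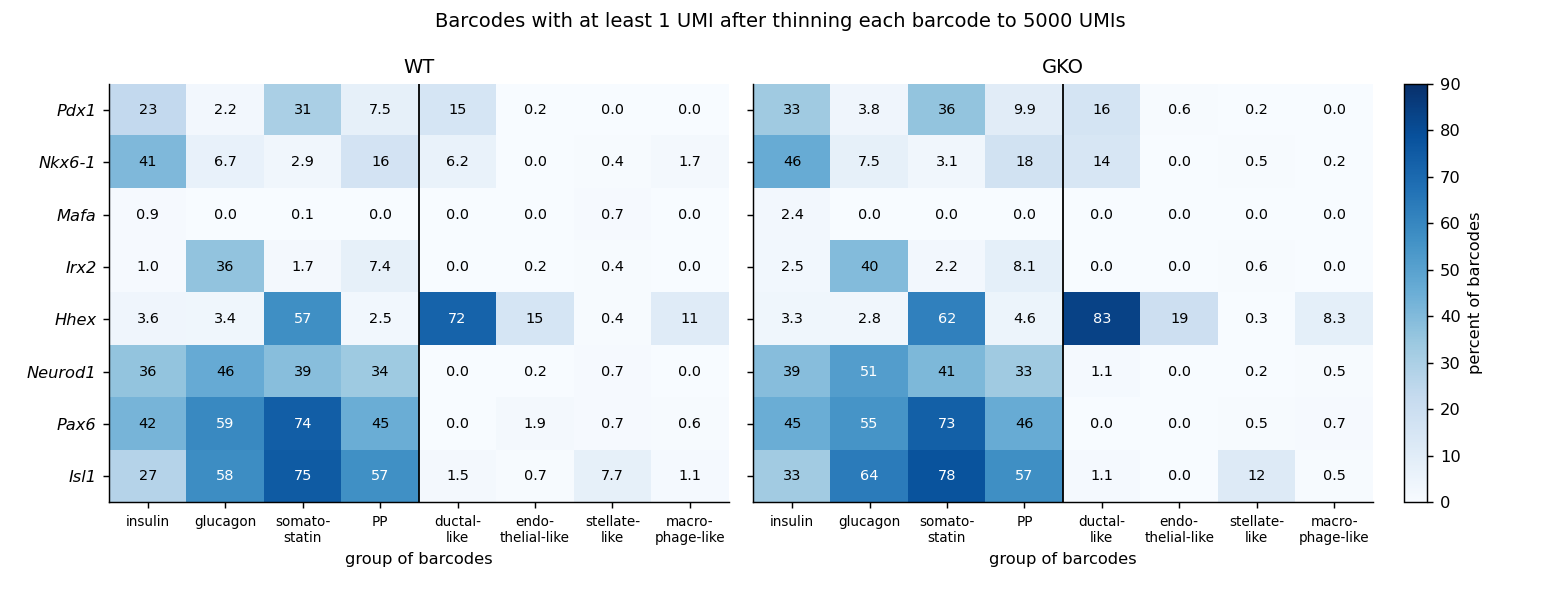
Percent of barcodes with at least 1 UMI of each gene (rows) in 4 hormone-led and 4 non-endocrine groups (columns) after thinning every barcode to 5000 UMIs, WT on the left and GKO on the right. Darker blue is a higher percent. Neurod1 and Pax6 are found across the hormone-led groups, and Hhex is also found in 72.3% of ductal-like barcodes of WT and 83.3% of GKO.

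Outside the endocrine groups, Neurod1, Pax6, Mafa and Irx2 were low in every class. Barcodes with every hormone under 10% and under 0.5% endocrine-list UMIs were named from at least 4 of 8 markers of a type. Neurod1 and Pax6 had levels of at most 2.70 and 8.99 in all such classes. Over endothelial-like, stellate-like, macrophage-like and acinar-like barcodes together, Neurod1 was at 1.25 in WT and 1.18 in GKO, 152-fold and 169-fold below the hormone-led barcodes. Pdx1 was at 1.16 and 0.524 and Nkx6-1 at 0.980 and 0.458 in the same classes.

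Hhex and Isl1 were present in some of these classes. Ductal-like barcodes (67 in WT, 94 in GKO) had a Hhex level of 287 (259 to 317) in WT and 442 (409 to 477) in GKO. In WT this was within counting error of the somatostatin-led level of 271, and in GKO it was above the 287 of that group. Endothelial-like barcodes had Hhex levels of 37.1 and 39.9 and macrophage-like barcodes 25 and 27.1. Stellate-like barcodes had only 2.83 and 1.04. Isl1 was at 21.4 (16.6 to 27.1) in WT and 27.3 (23.5 to 31.5) in GKO in stellate-like barcodes, and at 1.64 and 1.09 in endothelial-like ones. Among stellate-like barcodes Isl1 was found both in those with more Pdgfra than Rgs5 UMIs (10.7% and 20.2%) and in those with more Rgs5 (10.1% and 10.4%). These shares are without thinning and depend on depth. The Isl1 levels were 14.8 in WT and 28.5 in GKO with more Pdgfra, and 25.4 and 22.1 with more Rgs5.

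Pdx1 was also present in ductal-like barcodes, at 33.0 (24.0 to 44.3) in WT and 42.4 (32.6 to 54.3) in GKO. Nkx6-1 had 10 UMIs there in WT and 63 in GKO, in 9 and 41 barcodes, a level of 7.49 and 42.4 and a log2 ratio of GKO to WT of 2.50 (1.53 to 3.63). Isl1 had 14 UMIs there in WT and 3 in GKO, Pax6 12 and 4, and Irx2 10 and 0. In WT, 1 barcode held 11 of the Pax6 UMIs and 1 held all 10 of Irx2. The share of all genes as far apart in this class was not computed. Ductal-like barcodes of GKO had a higher summed level of the 8 ductal markers, 23392 against 17345, and a lower one of the 8 endocrine genes, 109 against 344. The part of either in the Nkx6-1 level was not tested.

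Barcodes with endocrine-list genes but every hormone under 10% (204 in WT, 197 in GKO) carried all members but Mafa, at levels between those of the groups. Hhex was at 100.3 and 106, Irx2 at 48.8 and 50.0, Nkx6-1 at 46.9 and 48.8, and Pdx1 at 41.5 and 62.9. Their Isl1 levels were 266 and 315. The 6 WT barcodes with at least 100 Ghrl UMIs, which hold 42984 of its Ghrl UMIs, had 88 Isl1 UMIs, in all 6, and no Mafa UMI. They had 15 Neurod1 UMIs in 4 barcodes, 13 Hhex UMIs in 1 and 11 Irx2 UMIs in 2. Pax6 had 6 UMIs, all in 1 of the 6 barcodes, and Pdx1 and Nkx6-1 had 3 or fewer each. The single such barcode of GKO had 9 Isl1 UMIs and none of Pdx1, Mafa, Pax6 or Hhex.

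The GKO library was then set against WT within each hormone group, the comparison for which the libraries were made. Insulin-led barcodes were 31.9% of the kept barcodes in WT and 13.7% in GKO. The study cautions that its β-cell expression values stand for the cells that came through sorting alive. The part of cell survival in the ratios below was not tested. Of the 8 genes, 7 were higher and 1 was lower in GKO in insulin-led barcodes, where 52.2% of all genes were higher. The median log2 ratio of GKO to WT was 0.19 for the 8 genes, against 0.0092 over all genes. Of the 7, Hhex turned to -0.24 without barcodes with a second hormone at 2%, and Neurod1 to -0.011 under that setting. Mafa and Irx2 were past 1.5-fold, as were 6.98% of the 13042 genes with at least 50 UMIs. Of the 7 genes with 50 UMIs in the other groups, none was past 1.5-fold in glucagon-led barcodes (5.69% of 11917 genes), none in somatostatin-led barcodes (4.94% of 11876) and 1, Hhex, in PP-led barcodes (4.86% of 11491). The median log2 ratio of the members was 0.22 in glucagon-led, 0.091 in somatostatin-led and 0.16 in PP-led barcodes, against 0.054, 0.023 and 0.038 over all genes.

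In insulin-led barcodes Mafa was 1.82-fold higher in GKO, at 10.4 against 5.71 (log2 ratio 0.86, 0.54 to 1.18). It was higher in both bins of insulin share that held Mafa UMIs, by log2 ratios of 1.18 at 25 to 60% and 0.80 at over 60%. With limits at 40 and 70% instead, the log2 ratio was 1.04 (0.70 to 1.37) in the middle bin, -0.65 below it on 3 WT and 1 GKO UMIs, and -0.39 (-2.36 to 1.12) above it on 29 and 4 UMIs. Pdx1 was 1.38-fold higher, at 189 against 137 (log2 ratio 0.47, 0.40 to 0.54). Its log2 ratios from the lowest to the highest bin of insulin share were 0.72, 0.54 and 0.45, so the difference was present in every bin. Of all genes tested in this group, 4.53% had a GKO-to-WT ratio as high or higher. Nkx6-1 had a log2 ratio of 0.15 (0.097 to 0.20), Isl1 of 0.18 (0.11 to 0.24) and Neurod1 of 0.047 (-0.013 to 0.11). Pax6 was the 1 gene lower in GKO, with a log2 ratio of -0.062 (-0.12 to -0.0080).

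Irx2 in insulin-led barcodes was at 6.41 in WT and 10.5 in GKO (log2 ratio 0.71, 0.39 to 1.02). In barcodes with over 60% insulin it rested on 35 and 22 UMIs, and the interval of its log2 ratio there ran from -0.025 to 1.62. Markers of other cells differed between the insulin-led groups of the libraries. The summed level of the 8 macrophage markers was 266 in WT and 419 in GKO, of the 8 stellate or pericyte markers 222 and 325, of the 8 endothelial markers 173 and 90.7, and of the 8 acinar markers 1081 and 249, with all 8 detected in each. Without barcodes that had at least 3 markers of 1 such type, the log2 ratio of Mafa was 0.54 and that of Irx2 was 1.01. A marker counted from 1 UMI, so the barcodes left out depend on depth and on these unlike marker levels. Under the same setting the log2 ratios of Pdx1, Nkx6-1, Isl1 and Hhex were 0.41, 0.050, 0.15 and 0.49, and Neurod1 turned to -0.087.

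In glucagon-led barcodes Irx2 was higher in GKO, at 146 against 125 (log2 ratio 0.22, 0.12 to 0.33). Isl1 was at 322 against 273 (log2 ratio 0.24, 0.17 to 0.31) and Neurod1 at 224 against 193 (log2 ratio 0.22, 0.14 to 0.30). Pax6 was lower, at 237 against 261 (log2 ratio -0.14, -0.21 to -0.065). In somatostatin-led barcodes Pdx1 was at 115 against 96.0 (log2 ratio 0.27, 0.14 to 0.39) and Isl1 at 480 against 403 (log2 ratio 0.25, 0.19 to 0.31). Hhex differed little there, with a log2 ratio of 0.083 (0.0085 to 0.16).

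In PP-led barcodes Hhex was at 19.8 in GKO and 12.3 in WT (log2 ratio 0.69, 0.37 to 1.02). It rested on 198 UMIs in 74 barcodes and 134 UMIs in 55 barcodes, and 1 GKO barcode held 18. In PP-led barcodes with under 2% somatostatin, 61 Hhex UMIs in GKO and 24 in WT gave levels of 7.004 and 2.45. With each barcode given the same weight the log2 ratio was 0.41. PP-led barcodes also differed in markers of other cells, at 125 in WT and 367 in GKO for the 8 stellate or pericyte markers and at 71.7 and 274 for the 7 B cell markers. Without barcodes of 3 or more such markers the log2 ratio of Hhex was 0.47. Pdx1 was at 32.3 against 25.1 (log2 ratio 0.36, 0.12 to 0.60) and Neurod1 at 170 against 143 (log2 ratio 0.25, 0.15 to 0.35).

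Isl1 was higher and Pax6 was lower in GKO in all 4 hormone groups, though Pax6 in insulin-led barcodes turned upward, to at most 0.013, on all UMIs and without the deepest 5% of barcodes. The interval of Isl1 lay above equality in each, and that of Pax6 lay below it in all but the PP-led group, where the log2 ratio was -0.060 (-0.15 to 0.027). Many genes lay as far out. The share of all tested genes with a ratio as high as that of Isl1 or higher was 18.6% in insulin-led, 17.5% in glucagon-led, 12.7% in somatostatin-led and 26.1% in PP-led barcodes. For Pax6 the same shares were 65.3%, 81.5%, 68.0% and 68.9%. The groups of a library come from 1 preparation, so they are not 4 independent observations of a genotype difference.

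**Figure D5:**
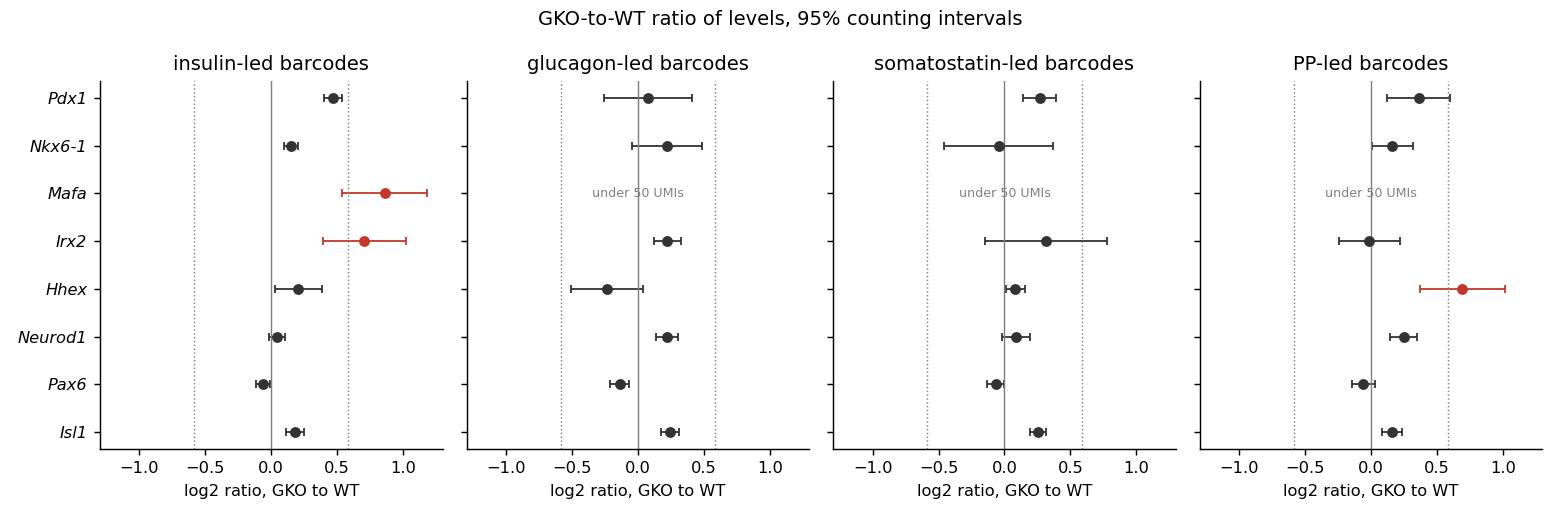
Log2 ratio of the GKO to the WT level of each gene in 4 hormone-led groups, with 95% counting intervals. Dotted lines mark 1.5-fold and red points lie past it (Mafa at 0.86 and Irx2 at 0.71 in insulin-led, Hhex at 0.69 in PP-led barcodes), and Isl1 lies to the right of 0 in every group.

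Other islet transcription factors shared these limits. Of 26 listed, 25 were tested across hormone groups. Of these, 4 had 1 group at least 2-fold above the others in both libraries, where 7.83% of all genes did. They included Mnx1 in insulin-led barcodes, Irx1 in glucagon-led and Neurog3, the factor that starts the endocrine program, in somatostatin-led barcodes. Between genotypes, 1 of 25 was past 1.5-fold in insulin-led barcodes, Neurog3, at 5.62 in WT and 8.96 in GKO (log2 ratio 0.67, 0.33 to 1.01). In glucagon-led barcodes 2 of 24 were, Hnf4a (log2 ratio 0.91) and Neurog3 (log2 ratio 0.65), both higher in GKO. In somatostatin-led barcodes 2 of 21 were higher, among them Irx1, a relative of Irx2 in the Iroquois family, at 29 and 43 UMIs (log2 ratio 1.17). In PP-led barcodes 1 of 24 was higher, Hnf4a (log2 ratio 0.65). Over all genes, 6.98% were past 1.5-fold in insulin-led, 5.69% in glucagon-led, 4.94% in somatostatin-led and 4.86% in PP-led barcodes. With so few genes past the limit, no trait of the list is read from these counts.

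Partners of these factors, such as the LIM cofactor Ldb1 and the E-proteins Tcf3, Tcf4 and Tcf12, were followed as well. None of the 12 had 1 group at least 2-fold above the others in both libraries, where 7.83% of all genes did. A list of 12 genes is too short to be set apart from that share. In PP-led barcodes 1 of 12 was past 1.5-fold, the coactivator Cited2, at 278 in WT and 469 in GKO (log2 ratio 0.76, 0.69 to 0.82), and none was in the other groups. Over all genes, 4.86% were past the limit in PP-led barcodes and 4.94% to 6.98% in the other groups.

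A list of known targets of Pdx1, Nkx6-1 or Mafa and of other mature β-cell genes was also followed. Of 15 tested, 10 were at least 2-fold above all other groups in insulin-led barcodes, in both libraries. Over all genes 7.83% met the rule in any 1 group. The list was picked from known β-cell genes, so this count follows from the choice and shows nothing about the 3 factors. The 10 include Slc2a2, the glucose transporter GLUT2, the glucose-6-phosphatase subunit G6pc2, and Ucn3, a peptide of mature β cells. In insulin-led barcodes none of the 15 was past 1.5-fold between the libraries, where 6.98% of all genes were. Their median log2 ratio was -0.053. The nearest to the limit was G6pc2 at 1326 in WT and 898 in GKO (log2 ratio -0.56, -0.59 to -0.53), named after its value was seen. In PP-led barcodes, where they are low, 3 of 12 were lower in GKO and 1 was higher, and 4.86% of all genes were past the limit either way. The lower ones were Slc2a2 (66 and 26 UMIs, log2 ratio -1.22), Ucn3 (50 and 21 UMIs, -1.12) and G6pc2 (145 and 64 UMIs, -1.05). Without barcodes with a second hormone at 2% Slc2a2 was at -0.33, and 1 WT barcode held 25 of the 145 G6pc2 UMIs. Cox6a2 was the higher one, on 24 and 34 UMIs (log2 ratio 0.63, -0.17 to 1.45), and 1 barcode held 16 of the 34. In somatostatin-led barcodes 1 of 10, G6pc2, was lower (log2 ratio -0.70), and in glucagon-led barcodes none of 11 was past the limit. Over all genes, 4.94% and 5.69% were past it in these 2 groups.

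Genes that mature β cells hold low or off were also followed. In insulin-led barcodes 4 of 9 tested were higher in GKO and none was lower, with a median log2 ratio of 0.26, against 6.98% of all genes past the limit either way and a median of 0.0092. They were Aldh1a3, a retinaldehyde dehydrogenase, at 2.96 in WT and 5.45 in GKO (log2 ratio 0.88, 0.43 to 1.33), Gast, the gastrin gene (0.77, 0.42 to 1.12), Pdgfra (0.67, -0.091 to 1.41) and Neurog3. For Gast, 1 GKO barcode held 49 of 116 UMIs. Pdgfra was found in 24 barcodes of WT and 13 of GKO. It is also 1 of the 8 stellate or pericyte markers, whose summed level was higher in these GKO barcodes (222 and 325). The part of stellate RNA in its ratio was not tested. Aldh1a3 was lower in GKO in somatostatin-led barcodes (log2 ratio -0.79, -1.38 to -0.22), the only 1 of 7 past the limit there. In PP-led barcodes 3 of 7 were higher, Sox9 (25 UMIs in WT and 40 in GKO), Ldha (51 and 74) and Slc16a1 (27 and 39), and in glucagon-led barcodes 1 of 7, Neurog3, was. Over all genes, 4.94% were past the limit in somatostatin-led, 4.86% in PP-led and 5.69% in glucagon-led barcodes. Genes with few UMIs pass more often, and 18.6% did in insulin-led barcodes with a minimum of 1 UMI in each library. Neurog3 is also in the list of other islet transcription factors. So few genes were tested that no trait of this list is read from the counts.

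Most family relatives of the 8 genes were scarce, and 5 to 7 of the 19 listed had 50 UMIs in a hormone group. In insulin-led barcodes Maf, a close relative of Mafa that is also strong in macrophages, had 54 UMIs in WT and 109 in GKO (log2 ratio 2.38, 1.90 to 2.88), 17 of the latter in 1 barcode, beside the higher macrophage markers given above. In PP-led barcodes Maf was higher (log2 ratio 1.17, 0.29 to 2.10) and Maff lower (-0.59, -0.88 to -0.30), and in somatostatin-led barcodes 2 of 5 were higher, Irx1 among them. None was past the limit in glucagon-led barcodes. Over all genes, 6.98% were past it in insulin-led, 4.86% in PP-led, 4.94% in somatostatin-led and 5.69% in glucagon-led barcodes. Across hormone groups 3 of 7 met the 2-fold rule, among them Irx1 in glucagon-led and Nkx6-3 in PP-led barcodes, where 7.83% of all genes met it.

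Genes with a like pattern were sought over 20 points, 10 groups of at least 50 barcodes in each library, by the Pearson correlation of log2(level + 1) among 13723 genes. The points share libraries and depth, so the values only describe. Nearest to Pdx1 were Dcx (r = 0.97), a microtubule-binding protein of neurons, Exph5 (0.96), an effector of vesicle release, and Anks4b (0.96). Nearest to Nkx6-1 were Xrcc3 (0.92), Gfpt1 (0.91), the first enzyme of hexosamine synthesis, and Ggact (0.91). Nearest to Mafa were Gm27168 (0.97), Mfi2 (0.97) and RP23-144N15.10 (0.96), all of few UMIs. Nearest to Irx2 were the bHLH-PAS factor Arnt2 (0.98), the kinase gene Wnk3 (0.98) and Vwde (0.97). Hhex had no gene as near, with Pold3 (0.87), the epithelial ETS factor Ehf (0.86) and Marveld2 (0.85), a protein of epithelial junctions, at the top. Neurod1 was nearest to Efcab1, Pcsk2os1 and Rimbp2 (all 0.99), and Pax6 was near Pcsk2os1 and Rimbp2 (both 0.99). Isl1 was nearest to the imprinted genes Meg3 (0.98) and Peg3 (0.98) and to Krt1 (0.98). Among the 8 genes themselves, Neurod1 and Pax6 were most alike (0.98), and Mafa and Hhex least (-0.11).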

How the data were processed

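The authors dispersed islets, sorted live cells, made 10x Genomics 3′ libraries and counted UMIs with Cell Ranger 5.0.1 on mm10, per the submitters' processing notes, with reads down-sampled between samples as required. The deposited values are raw UMI counts per gene and barcode, without normalization. The removal of free RNA and of doublets that the study ran later is not in them, and no doublet caller was run here. Groups were sums of counts, with exact 95% intervals for sums (Poisson), ratios (conditional binomial) and shares (Clopper-Pearson). These cover counting error only.

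Calls were set at 1.5-fold between libraries and 2-fold between hormone groups, for genes with at least 50 UMIs. The members and lists were chosen with earlier results of these data known, and the limits of 0.5% and of 4 markers for classes outside the hormone groups were set after the data were seen. Ighm and Ero1b were not counted, so the B cell list holds 7 markers and the β-cell list 15 genes. Near the 10% hormone limit, 93 barcodes in WT and 89 in GKO had a leading share of 8 to 10%, and 153 and 136 had 10 to 12%.

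Genes named are the 8 members, list genes past the fold (up to 4 each way), the 3 genes most like each member (at least 200 UMIs, pseudocount 1), and Ghrl. Some genes that this rule names are not reported here. Alternatives changed the total, filters, groups, weights, scaling (TMM) and free RNA. Sums and intervals were computed with scipy 1.17.1, numpy 2.4.6 and pandas 2.3.3 under Python 3.11.15, figures with matplotlib 3.10.9, and TMM factors alone with edgeR 4.0.16 in R 4.3.3. The ratio intervals were tried only on simulated Poisson sums. Such sums leave out spread between barcodes, so the trial does not show how the intervals hold on real counts.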

Additional observations from a re-analysis of the deposited data

How the results depend on the processing

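The 4 genes with 1 hormone group at least 2-fold above the others (Nkx6-1, Mafa, Irx2 and Hhex) met that rule under all 11 alternatives tried. Of 356 recomputed GKO-to-WT ratios of the 8 genes, 327 stayed within the 95% interval of the main value. Other values moved more often. Within their main interval stayed 122 of 170 ratios between hormone groups, 422 of 704 levels and 4 of 28 ratios over insulin share. Of shares of barcodes with a UMI, recomputed at other depths, 38 of 192 stayed within it. Pdx1 and Mafa in insulin-led barcodes stayed higher in GKO under all 13 alternatives, with log2 ratios from 0.41 to 0.54 and from 0.54 to 0.95, and Irx2 there ranged from 0.47 to 2.18. Pax6 in insulin-led barcodes ranged from -0.090 to 0.013 and turned upward on all UMIs and without the deepest 5% of barcodes. There Neurod1 ranged from -0.087 to 0.12 and Hhex from -0.24 to 0.49. The number of genes past 1.5-fold in insulin-led barcodes was 1 instead of 2 when barcodes needed 1000 genes and no more than 5% mitochondrial UMIs (Mafa), with a hormone limit of 25% (Mafa), and without barcodes of 3 or more non-endocrine markers (Irx2; ductal markers, shared with endocrine cells, were not used for this). In glucagon-led barcodes it was 1 instead of 0 with the 25% limit (Pdx1), without barcodes with a second hormone at 2% (Hhex, lower in GKO) and after subtraction of free RNA (Hhex). In somatostatin-led barcodes it was 2 instead of 0 with the 25% limit, Nkx6-1 and Irx2. In PP-led barcodes it was 0 instead of 1 without barcodes of 3 or more non-endocrine markers and with equal weight for barcodes. On all UMIs the log2 ratio of Pdx1 from the lowest to the highest insulin share in GKO was -0.056 instead of 1.02, and that of Nkx6-1 -0.21 instead of 0.88, as insulin is then in the total. With a minimum of 1 UMI, 18.4% to 19.8% of all genes were past 1.5-fold, against 4.86% to 6.98%, since genes with few UMIs enter. The alternatives were applied to the list genes after the data were seen. In PP-led barcodes Cox6a2 turned to -0.64 with the 25% limit and -0.55 without second hormones at 2%, and Slc16a1 and Sox9 each to -0.060 without barcodes of 3 or more non-endocrine markers. The other list genes named kept their direction, but several fell short of 1.5-fold in at least 1 setting. The values nearest to 0 were 0.20 for Gast and 0.45 for Pdgfra in insulin-led, 0.45 for Neurog3 in glucagon-led and -0.42 for G6pc2 in somatostatin-led barcodes. In PP-led barcodes they were -0.33 for Slc2a2, 0.37 for Hnf4a, 0.36 for Maf and -0.41 for Maff. The causes of these shifts were not tested where none is given. No paired analysis was possible because each genotype is 1 library.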
